A study of Mus musculus with 6 samples.

Results

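Cadherins and protocadherins were followed by their gene symbols: every deposited gene row named Cdh plus a number, or Pcdh plus letters or numbers, was a member. This rule gave 93 of the 23038 genes listed. They fell into 5 type I classical cadherins, 13 type II classical cadherins, 5 other cadherins, 4 delta-1 protocadherins, 5 delta-2 protocadherins, 3 other protocadherins outside the clusters, and 14, 22 and 22 isoform rows of the alpha, beta and gamma protocadherin clusters. The cells were NSC-34, a mouse hybrid line of motor neuron and neuroblastoma origin grown in DMEM with 10% serum. Cultures received either a control siRNA, giving 3 siNC libraries, or siRNA directed at Qk, giving 3 siQk libraries, and poly-A selected RNA was sequenced to ask which transcripts change in level when the RNA-binding protein Quaking is depleted. By the study's account the replicates were independent cultures. The siQk arm drew on several different siRNAs, and the labels do not tie an siRNA to a library, so siRNA and culture cannot be told apart. A cell line in culture has no tissue neighbours, which limits it as a model of adhesion between motor neurons.

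Classical cadherins are transmembrane adhesion proteins that bind like to like across cell contacts in the presence of calcium and hold on to actin through beta-catenin, p120-catenin and alpha-catenin. Type I members form strong junctions, and type II members are known for sorting neurons, motor neuron pools among them, by the combination each pool expresses. Protocadherins outside the clusters adhere more weakly and signal to the actin machinery. The clustered protocadherins lie in tandem. Each alpha or gamma isoform joins its own large variable exon to a set of constant exons shared by the cluster, whereas each beta isoform is encoded by its own exon. Promoter choice by CTCF and cohesin gives neurons different sets of isoforms, which are known for self-avoidance of neurites. Quaking binds RNA at the sequence ACUAAY (Y, a pyrimidine) and is known for splicing and transcript stability.

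The letters ACTAAC or ACTAAT were searched on the sense strand of 1 spliced transcript per gene in the GENCODE annotation of GRCm38, without introns. They stood in 59 of the 91 matched members (64.8%) and in 41.2% of 21901 genes, but per length the members (0.254 per kb) were close to all genes (0.234 per kb). Pcdh17, the member with the smallest p below, held 6 occurrences on the plus strand of chromosome 14, fewer than Pcdh19 and Pcdhb19 (8 each). Of its windows of 30 bases, 4 are shown with the motif in capitals. They are letters of the reference, not measured binding sites.
Pcdh17 coding, chr14:84447664-84447693: tccgtgaaccccACTAACggggccatatat
Pcdh17 coding, chr14:84477588-84477617: agtgaccaagacACTAACaaaggctcctgc
Pcdh17 3′ UTR, chr14:84535251-84535280: gtgttctttgagACTAATgcctattattcc
Pcdh17 3′ UTR, chr14:84537547-84537576: ataaaagctattACTAATagcggtgttgcc
The type II cadherins Cdh6 and Cdh18 held 1 occurrence each, shown because they varied together between libraries (below). That of Cdh6 lay in a 3′ UTR which the deposited exon length (3489 bases, against 8167 in the GENCODE transcript) may not cover.
Cdh6 3′ UTR, chr15:13030263-13030292, minus strand: tactgtatttaaACTAACactccacccaac
Cdh18 coding, chr15:23382881-23382910, plus strand: acctactccatcACTAATggagacgggatt
No match was found in the transcripts of Cdh10, Cdh15, Cdh17, Cdh22 and Cdh24, but for Cdh10 (3407 bases searched, 10058 counted) and Cdh17 (3462 searched, 4474 counted) part of the counted exon length was not searched.

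Library totals ran from 43000503 to 53565950 counts, of which the members took 0.0427% to 0.0615%, and 75 to 79 members had a count in each library. Levels are given as RPKM (counts scaled by exon length and library total). Qk itself was at 9.67, 8.18 and 14.9 RPKM in siNC and at 1.39, 1.71 and 1.10 RPKM in siQk, which left 12.8% of the siNC mean. Neuron markers were clear in every library (summed 224.6 to 447.9 RPKM over the 5 listed), although Stmn2 was at or near 0. Of the 6 motor neuron markers, Mnx1 and Slc5a7 were at 0.0944 RPKM or less in every library. Chat, which makes acetylcholine, was at 0.030, 0.078 and 0.045 RPKM in siNC and 0.0997, 0.141 and 0.136 RPKM in siQk, without overlap at 7 to 35 counts per library, and Lhx3 at 0.076 to 0.283 and 0.264 to 0.516 RPKM. Both were too low to be tested. Slc18a3, the vesicular acetylcholine transporter, was at 1.66, 2.25 and 2.15 RPKM in siNC and 2.29, 1.56 and 1.92 RPKM in siQk (log2 fold change -0.09 ± 0.21, SE). Isl1, a motor neuron transcription factor, was at 4.83, 4.75 and 4.80 RPKM in siNC and at 9.63, 7.80 and 8.33 RPKM in siQk (log2 fold change 0.82 ± 0.10, SE, adjusted p = 0.9996, edgeR quasi-likelihood test), without overlap. It was called by DESeq2 (adjusted p = 0.0328) and by no other alternative. Epithelial markers summed to 0.268 to 0.595 RPKM in siNC and 0.135 to 0.670 in siQk, nearly all of it Epcam, with the keratins Krt8, Krt18 and Krt19 at or near 0. Microglial and astrocyte markers were at or near 0 in both groups. Fibroblast markers summed to 3.13 to 5.34 RPKM in siNC and 0.972 to 2.98 in siQk, nearly all of it Pdgfrb, with the collagens Col1a1, Col1a2 and Col3a1 at or near 0. Endothelial markers summed to 6.64 to 11.8 RPKM in siNC and 6.32 to 7.89 in siQk with Emcn at 0, and oligodendrocyte markers to 3.13 to 3.65 and 1.74 to 2.79 RPKM with Olig2 at or near 0. Their part in the results below was not tested.

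Few of the 93 genes carried most of the signal. By mean over the 6 libraries, 21 members reached 1 RPKM and 54 reached 0.1 RPKM. No read was counted in any library for 10 members, namely the type II cadherins Cdh7, Cdh8, Cdh9, Cdh19 and Cdh20 and the protocadherins Pcdh10, Pcdh11x, Pcdh18, Pcdh19 and Pcdh20. A count of 0 allows up to 3 counts per library, which came to between 0.00475 and 0.0240 RPKM for these genes according to exon length and library total. Summed over all members, the level was 139.2, 168.3 and 133.3 RPKM in siNC and 154.1, 115.4 and 146.1 RPKM in siQk, and the groups overlapped.

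Of the members, 42 passed the filter on low counts (mean log2 CPM above 0) and were tested in the same fit as 12665 genes. None was called at p under 0.01 and an adjusted p under 0.1 (0 of 42, edgeR quasi-likelihood test), where 0.00790% of all genes tested, Qk alone, were called. At an unadjusted p under 0.05, 1 member was higher in siQk (Pcdh17) and 0 were lower, against 1.20% and 1.69% of all genes tested. The siQk and siNC libraries did not overlap in 5 members that were higher in siQk (Pcdh17, Pcdhb1, Cdh17, Pcdha1 and Pcdhb21) and in 0 that were lower, against 4.45% and 4.07% of all genes tested. The median log2 fold change of the tested members was 0.082, with 26 above 0 and 16 below, beside 0.003 over all genes. Its sign turned on single libraries, at -0.057 (18 above, 24 below) without siQk replicate 1 and -0.0022 (19 above, 23 below) without siQk replicate 3. With no filter on low counts it was 0.19 (52 of 83 above), and with filterByExpr, a filter at a minimum count of 10, it was 0.15 (37 of 56 above). The median SE of the log2 fold change was 0.387 for the members and 0.215 over all genes tested. In bulk RNA, fewer cells with a transcript and less of it per cell cannot be told apart.

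**Figure D1:**
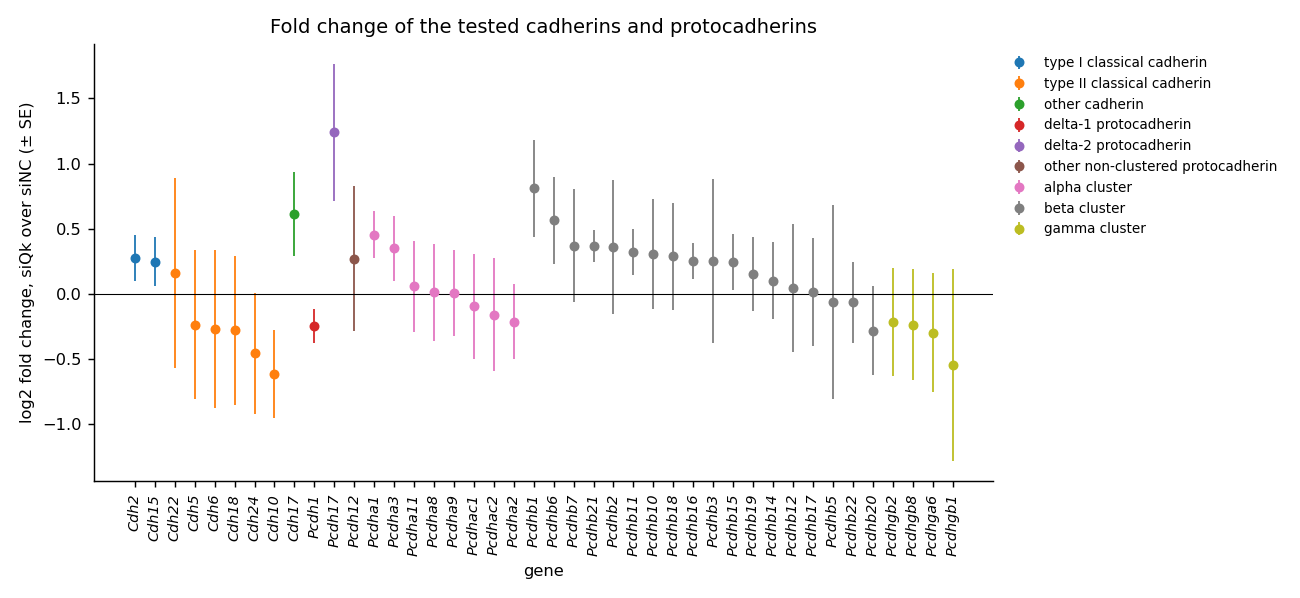
Log2 fold change of siQk over siNC (vertical axis) of the 42 tested members, grouped by class, with bars of ± 1 SE (n = 3 libraries per group). Values ran from -0.61 (Cdh10) to 1.24 (Pcdh17), and 0 members were called.

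Among the type I cadherins, Cdh1 (E-cadherin, of epithelial junctions) was barely detected, with 0 or 1 count in each library. Cdh2 (N-cadherin, the main cadherin of neural tissue, chromosome 18, 16588877 to 16809246, minus strand) was at 2.92, 3.95 and 2.65 RPKM in siNC and at 3.64, 4.43 and 3.65 RPKM in siQk. The highest siNC library lay above 2 of the siQk libraries, and the log2 fold change was 0.28 ± 0.17 (SE, adjusted p = 0.9996, edgeR). Cdh15 (M-cadherin, known from muscle) was at 3.15, 2.59 and 1.996 RPKM in siNC and at 2.75, 3.38 and 3.20 RPKM in siQk. The groups overlapped and the log2 fold change was 0.25 ± 0.19 (SE). Cdh3 (P-cadherin) and Cdh4 (R-cadherin) had at most 3 and 5 counts per library.

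Cdh22, a type II cadherin known from brain and pituitary (chromosome 2, 165111507 to 165234853, minus strand), was the most abundant Cdh gene by RPKM. Its level was 18.3, 9.10 and 8.25 RPKM in siNC and 20.01, 4.79 and 15.6 RPKM in siQk. The spread within each group exceeded the difference between them (log2 fold change 0.16 ± 0.73, SE), and the sign changed when siQk replicate 1 was left out (-0.24). Cdh6 (K-cadherin, a marker of neuron subsets) ran the other way between libraries, at 2.27, 4.46 and 4.66 RPKM in siNC and 2.48, 5.51 and 1.66 RPKM in siQk. Cdh18, a type II cadherin of the nervous system, split the libraries as Cdh6 did, at 0.206, 0.481 and 0.600 RPKM in siNC and 0.263, 0.549 and 0.267 RPKM in siQk. The 3 libraries with the highest Cdh22 (siNC replicate 1, siQk replicates 1 and 3) were the 3 with the lowest Cdh6 and the lowest Cdh18, so the contrast between these type II genes crossed the siRNA groups. It was noticed after the values were seen.

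Cdh10, a neuronal type II cadherin, had the lowest fold change of the tested members. It was at 0.303, 0.233 and 0.445 RPKM in siNC and at 0.270, 0.182 and 0.205 RPKM in siQk (log2 fold change -0.61 ± 0.34, SE, adjusted p = 0.9996, edgeR), and siQk replicate 1 lay within the siNC range. Without siNC replicate 3, its highest library, the log2 fold change was -0.29. Cdh24 was at 1.57 to 3.52 RPKM in siNC and 1.12 to 2.31 RPKM in siQk, and Cdh5 (VE-cadherin, of endothelium) at 0.233 to 0.892 and 0.376 to 0.567 RPKM. Of the 6 tested type II cadherins, 5 had fold changes below 0 and 0 passed the test (median log2 fold change -0.28). The median was -0.096 without siQk replicate 3 (4 of 6 below 0) and -0.18 without siNC replicate 3. Cdh11 (OB-cadherin) and Cdh12 had at most 15 and 6 counts per library. Among the other cadherins, Cdh17 (LI-cadherin, of liver and intestine) was at 0.272, 0.179 and 0.369 RPKM in siNC and at 0.471, 0.409 and 0.407 RPKM in siQk. Every siQk library lay above every siNC library, with a log2 fold change of 0.62 ± 0.32 (SE, adjusted p = 0.9996, edgeR). Cdh13 (T-cadherin, which has a lipid anchor in place of a transmembrane part), Cdh16 and Cdh26 had at most 3 counts and Cdh23 (of the hair cell tip link) at most 6 per library.

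Pcdh1, a delta-1 protocadherin known from airway epithelium (chromosome 18, 38185914 to 38212053, minus strand), was the most abundant member by far. It was at 49.5, 68.5 and 56.4 RPKM in siNC and at 50.3, 50.3 and 49.0 RPKM in siQk. The siQk libraries were tightly grouped around the lowest siNC library (log2 fold change -0.24 ± 0.13, SE, adjusted p = 0.9996, edgeR). The other delta-1 genes had few or no counts: Pcdh9 had at most 10 counts per library, Pcdh7 at most 1 and Pcdh11x 0.

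Pcdh17, a delta-2 protocadherin that recruits the WAVE actin complex at contacts between axons (chromosome 14, 84443563 to 84539002, plus strand), had the highest fold change of the tested members. It was low, at 0.112, 0.073 and 0.074 RPKM in siNC and 0.141, 0.363 and 0.118 RPKM in siQk, with 35 to 215 counts per library. All siQk libraries lay above all siNC libraries, but siQk replicate 2 stood well above the others. The log2 fold change was 1.24 ± 0.53 (SE, unadjusted p = 0.0252, adjusted p = 0.9996, edgeR; exact permutation test on RPKM, two-sided, p = 0.1, the smallest that 20 arrangements allow), and it was 0.56 without siQk replicate 2. Pcdh8 had 1 count in a single library and the other delta-2 genes none. Pcdh12 (known from endothelium) was likewise highest in siQk replicate 2, at 0.269, 0.177 and 0.174 RPKM in siNC and 0.121, 0.442 and 0.197 RPKM in siQk. Its log2 fold change of 0.27 ± 0.56 (SE) became -0.40 without that library. Pcdh15, the tip link partner of Cdh23, had at most 10 counts per library.

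**Figure D2:**
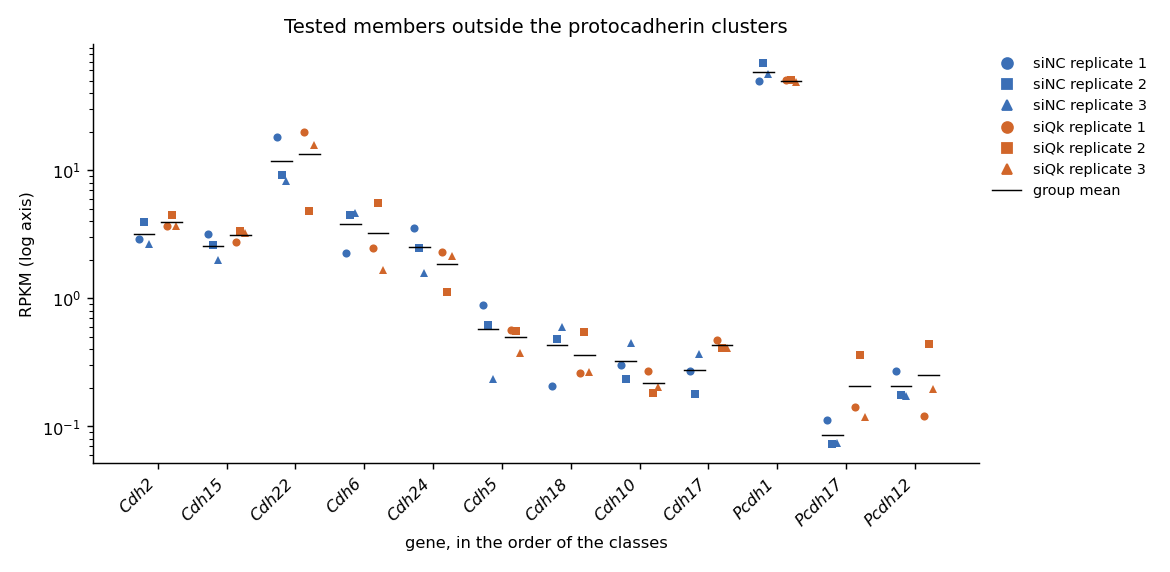
RPKM (log axis) of the 12 tested members outside the clusters in each of the 6 libraries, with siNC in blue, siQk in orange, replicates by marker shape and group means as bars. Pcdh1 stood at 49.0 to 68.5 RPKM and Pcdh17 at 0.073 to 0.363 RPKM, with siQk replicate 2 highest for Pcdh17 and lowest for Cdh22.

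The clustered rows needed a check of what each row counts before levels were compared. Of 34 alpha and gamma rows matched to GENCODE, 17 had a deposited exon length exactly equal to the coding part of the variable exon, so those rows hold the variable exon without the constant exons. Of the 17 longer rows, 14 exceeded that part by 59 to 537 bases and Pcdha11 by 1441 bases. The rows of Pcdha2 and Pcdhgb2 were the longest, with lengths of 5216 and 4482 bases, which is 2828 and 2070 bases more than the coding part of their variable exons (2388 and 2412 bases). The later exons of these transcripts, shared across each cluster, measure 2860 and 2119 bases. If all other alpha rows together set the level of the shared exons, the extra length of Pcdha2 would hold 81.4% to 110.3% of the count of that row in the 6 libraries. The same figure for Pcdhgb2 was 94.6% to 123.3%. These rows were therefore read as holding the shared exons of the alpha and gamma clusters, and not as levels of the Pcdha2 and Pcdhgb2 isoforms.

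**Figure D3:**
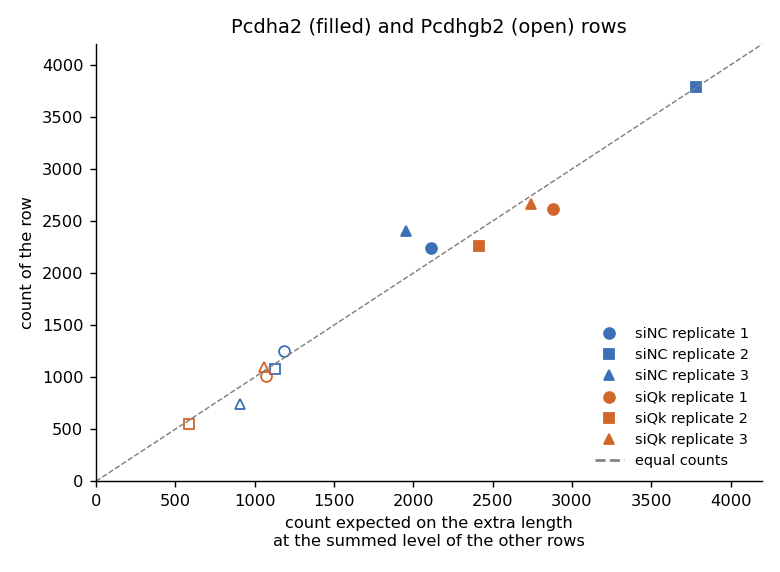
Deposited count of the Pcdha2 row (filled) and the Pcdhgb2 row (open) in each library, against the count that the extra length of the row would hold at the summed RPKM of the other rows of the cluster. The points lie along the dashed line of equal counts, from 554 counts (Pcdhgb2, siQk replicate 2) to 3787 counts (Pcdha2, siNC replicate 2).

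In the alpha cluster, Pcdhac2 led in all 6 libraries. It was at 5.37, 14.8 and 7.70 RPKM in siNC and 9.75, 7.38 and 8.09 RPKM in siQk, with siNC replicate 2 far above the rest (log2 fold change -0.16 ± 0.43, SE). Pcdhac2 is a C-type isoform, a kind that neurons tend to express without the random choice seen for other isoforms. Pcdhac2, Pcdha9 and Pcdha8 together made 70.4% to 78.8% of the summed level of the 13 alpha rows without Pcdha2, and Pcdha9 was second in every library (17.0% to 25.4%). The Pcdha2 row was at 8.42, 15.3 and 10.7 RPKM in siNC and 11.0, 8.10 and 11.1 RPKM in siQk (log2 fold change -0.21 ± 0.29, SE). Pcdha1 was at 0.551, 0.425 and 0.477 RPKM in siNC and at 0.560, 0.680 and 0.790 RPKM in siQk, with replicate 1 of each group nearly level (log2 fold change 0.46 ± 0.18, SE, adjusted p = 0.9996, edgeR). Of the 8 alpha rows tested, the Pcdha2 row among them, 5 had fold changes above 0 and 3 below (median log2 fold change 0.011). Leaving out single libraries gave 2 to 8 rows above 0 and medians from -0.11 to 0.32, with 8 of 8 above 0 without siNC replicate 2. With low rows kept, 9 of 12 were above 0 under filterByExpr (median 0.15) and 11 of 14 with no filter (median 0.23).

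The beta cluster was spread over many isoforms. All 22 beta rows reached a mean of 0.1 RPKM and the highest value in any library was 3.09 RPKM, and the effective number of isoforms (1 over the sum of squared shares) was 11.9 to 14.3, beside 3.07 to 4.47 for alpha and 2.86 to 4.02 for gamma. Pcdhb20 was at 3.09, 2.67 and 2.52 RPKM in siNC and 2.75, 1.40 and 2.78 RPKM in siQk (log2 fold change -0.28 ± 0.34, SE), a value that was -0.022 without siQk replicate 2 and -0.44 without siQk replicate 3. Pcdhb17 was at 2.25, 1.99 and 1.74 RPKM in siNC and 2.72, 1.10 and 2.31 RPKM in siQk (log2 fold change 0.01 ± 0.41, SE). In both rows siQk replicate 2 was the low library and the groups overlapped.

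Pcdhb1, Pcdhb6 and Pcdhb21 had the smallest p of the beta rows. Pcdhb1 was at 0.224, 0.395 and 0.483 RPKM in siNC and at 0.509, 0.699 and 0.759 RPKM in siQk, without overlap (log2 fold change 0.81 ± 0.37, SE, adjusted p = 0.9996, edgeR). Pcdhb21 was at 0.970, 1.06 and 0.960 RPKM in siNC and at 1.46, 1.12 and 1.35 RPKM in siQk, again without overlap. Its log2 fold change was 0.37 ± 0.12 (SE, unadjusted p = 0.208, adjusted p = 0.9996, edgeR). Pcdhb6 was at 0.373, 0.455 and 0.572 RPKM in siNC and at 0.918, 0.475 and 0.720 RPKM in siQk, where siQk replicate 2 fell within the siNC range (log2 fold change 0.57 ± 0.33, SE). Of the 18 beta rows tested, 15 had fold changes above 0 and 0 passed the test (median log2 fold change 0.25). These figures rested on single libraries: the count was 17 of 18 and the median 0.43 without siQk replicate 2, 11 of 18 and 0.069 without siQk replicate 1, 10 of 18 and 0.064 without siQk replicate 3, and 13 of 18 and 0.15 without siNC replicate 2.

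Shares of each cluster's summed level seldom separated the groups. In the beta cluster, 1 of 22 rows had a share lower in every siQk library than in every siNC library and 0 rows a share higher, close to the 4.07% and 4.45% of all genes tested whose levels did not overlap. That row was Pcdhb20 (17.6%, 17.5% and 16.8% in siNC and 13.03%, 12.01% and 13.4% in siQk), picked out after its values were seen. In the alpha cluster it was Pcdha4 of 13 rows (higher in siQk), and in the gamma cluster Pcdhgb7 (higher) and Pcdhga10 (lower) of 21 rows, all with at most 57 counts per library.

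The gamma cluster had 4 rows above 1 RPKM and the other 18 rows at most 0.137 RPKM by mean. Pcdhgb8 led in all libraries, at 5.12, 5.50 and 4.99 RPKM in siNC and 5.43, 2.32 and 5.72 RPKM in siQk (log2 fold change -0.24 ± 0.43, SE). Together with Pcdhga6 and Pcdhgb1 it made 72.0% to 91.8% of the summed level of the 21 gamma rows without Pcdhgb2. The C-type rows Pcdhgc3, Pcdhgc4 and Pcdhgc5 had at most 18, 7 and 12 counts per library, in contrast with Pcdhac2 of the alpha cluster. The Pcdhgb2 row was at 5.49, 5.10 and 3.83 RPKM in siNC and 4.95, 2.31 and 5.33 RPKM in siQk (log2 fold change -0.22 ± 0.41, SE). All 4 gamma rows tested, of which the Pcdhgb2 row was read as holding the exons shared with the others, had fold changes below 0 (median log2 fold change -0.27). Without siQk replicate 2 the median was 0.05 and 3 of the 4 lay above 0, and with low rows kept 3 of 9 (filterByExpr) and 7 of 22 (no filter) lay above 0.

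**Figure D4:**
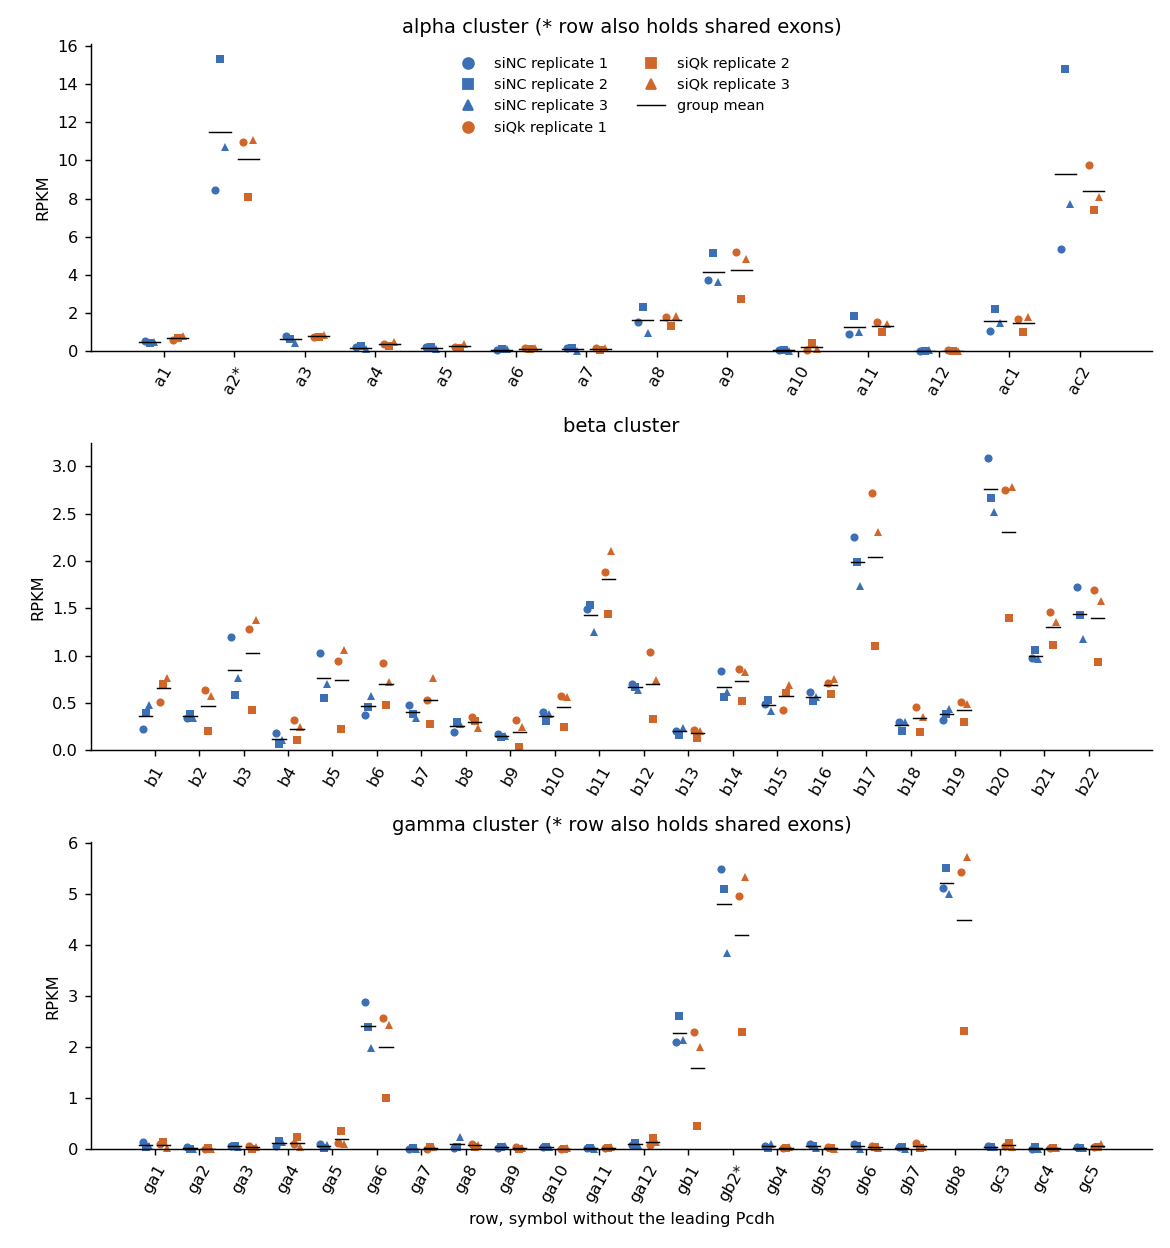
RPKM of every row of the alpha, beta and gamma clusters, ordered by name, in each of the 6 libraries, with siNC in blue, siQk in orange, replicates by marker shape and group means as bars. The alpha and gamma clusters were dominated by a few rows, the beta cluster was spread over 22 rows, and siQk replicate 2 (orange squares) was the lowest library for all 4 tested gamma rows and 12 of 18 tested beta rows.

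This library set much of the spread within siQk. It was the lowest of the 6 libraries for 22 of the 42 tested members (52.4%), beside 24.1% of all genes tested. The median excess of siQk replicate 1 over replicate 2 was 1.29 on the log2 scale for the gamma rows and 0.92 for the beta rows, beside -0.002 over all genes. That median does not make the library ordinary elsewhere: over all genes the chi-square per degree of freedom was 117.4 to 176.6 in its pairs with the other libraries and 21.3 to 146.8 in the remaining pairs. Summed over its rows without Pcdhgb2, gamma stood at 5.27 RPKM in siQk replicate 2. The other libraries were at 10.2 to 11.5 RPKM. Over all beta rows, the sum was 11.7 against 14.98 to 21.1 RPKM. By contrast, siQk replicate 2 was the highest library for 5 tested members (11.9%, beside 26.1% of all genes tested). These were Pcdh17, Pcdh12, Cdh2, Cdh15 and Cdh6. Some untested rows were also highest there, among them Pcdha10 (0.431 RPKM against at most 0.1002) and Pcdhga5 (0.362 against at most 0.136).

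Genes that act with the members were taken from 6 lists. Of the catenins and junction linkers, 11 of 13 were tested and 0 passed at an unadjusted p under 0.05. Ctnnb1 (beta-catenin) was the most abundant, at 148.6, 120.8 and 149.9 RPKM in siNC and 152.2, 126.0 and 155.0 RPKM in siQk, and Pkp4 had the smallest p (log2 fold change 0.37 ± 0.30, SE). Of 24 other genes of the cadherin superfamily, 10 were tested with 0 past that threshold. Ret, a receptor tyrosine kinase with cadherin-like domains, led at 129.3 to 209.1 RPKM, Cdhr5 had the smallest p (log2 fold change -0.60 ± 0.75, SE), and 8 genes, among them Fat3, Fat4 and the desmocollins Dsc1, Dsc2 and Dsc3, had no counts.

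Among the clustered protocadherin promoter regulators, 15 of 17 were tested, 11 had fold changes above 0 (50.8% of all genes tested did) and 0 passed at an unadjusted p under 0.05 (median log2 fold change 0.18). Hells, a chromatin remodeller needed for DNA methylation, had the smallest p, at 44.8, 58.6 and 61.2 RPKM in siNC and 65.1, 79.8 and 74.0 RPKM in siQk (log2 fold change 0.38 ± 0.17, SE, adjusted p = 0.9996, edgeR). Its groups did not overlap, nor did those of Smc1a, a cohesin subunit, at 89.1 to 95.1 and 105.2 to 116.5 RPKM, 2 of the 15 tested beside 4.45% of all genes tested. Rad21, another cohesin subunit, was the most abundant of the list (log2 fold change 0.18 ± 0.16, SE). Of 7 repressors of cadherins in epithelial-mesenchymal transition, 4 were tested with 0 past the threshold. Tcf3 was the most abundant (12.6 to 26.0 RPKM), Snai2 had the smallest p (log2 fold change 0.12 ± 0.29, SE), and Twist1 and Twist2 had no counts.

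Of 9 proteases that cut cadherins, 8 were tested, 7 had fold changes below 0 and 0 passed at an unadjusted p under 0.05 (median log2 fold change -0.14). Adam10, the main sheddase of N-cadherin, was at 26.0, 39.7 and 39.3 RPKM in siNC and 29.5, 25.9 and 32.8 RPKM in siQk (log2 fold change -0.28 ± 0.23, SE), and Ncstn, of gamma-secretase, was the most abundant at 36.9 to 52.1 RPKM. Of 11 signalling partners of protocadherins, 9 were tested with 0 past the threshold. Ptk2 (focal adhesion kinase), which clustered protocadherins are known to inhibit, had the smallest p. It was at 32.4, 31.4 and 37.13 RPKM in siNC and 30.6, 18.9 and 30.7 RPKM in siQk. The log2 fold change was -0.36 ± 0.26 (SE, adjusted p = 0.9996, edgeR). Its groups did not overlap, 1 of the 9 tested beside 4.07% of all genes tested, and siQk replicate 2 was the low library. Nckap1, of the WAVE complex that Pcdh17 recruits, was the most abundant at 79.4 to 107.1 RPKM (log2 fold change -0.04 ± 0.17, SE).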

How the data were processed

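Each deposited table gives 3 values per gene: a tag number, which is an expected count, an exon length, and RPKM. According to the labels and the study's methods, the authors aligned reads to the mouse genome (mm10 per the labels) with OLego and made the expected counts with Quantas; the library kit does not keep strand, and 34 of the 91 matched members overlap another annotated gene. The deposited RPKM values were rebuilt from the count, the exon length and the column total, so they carry no further scaling. Reads matching several members can be placed on either. For alpha and gamma isoforms only the first exon was compared, without the constant exons that each cluster shares, and for other members the whole transcript. Up to 38.0% of these 75-base words (Pcdhga4), and at most 14.3% for any other member, recurred in another member.

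Expected counts were rounded and scaled by TMM, and genes with a mean log2 CPM above 0 were kept (12665 genes). The quasi-likelihood test of edgeR 4.0.16 (R 4.3.3) compared siQk with siNC over 6 libraries. Genes were called at p under 0.01 and Benjamini-Hochberg adjusted p under 0.1 over all genes tested, after the study's cutoffs. At these cutoffs the study reported Qk, L3hypdh, Daam2 and Snap23 as lower in siQk, where this fit called Qk alone. The edgeR exact and likelihood-ratio tests called all of these and Cdon. SEs come from TMM log2 CPM (prior count 2). Precision is set by the 3 libraries per group more than by counting, and no pair of libraries agreed within sampling noise (chi-square per degree of freedom 21.3 or more). Positions come from GENCODE M21 (GRCm38), matched by symbol. Pcdha10 and Pcdhgb8 were not matched. The scripts were tested on simulated counts.

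The members and lists were chosen with earlier results of these data known. Named members were Cdh1 and Cdh2, the 2 with the highest mean RPKM (at least 0.1) in each class, the 8 with the smallest p, and any called in any fit; each related list gave its gene with the smallest p and its most abundant gene. Others are ranges, counts, or genes chosen after their values were seen. Marker lists covered neuron, motor neuron, epithelium, fibroblast, endothelium, oligodendrocyte, astrocyte and microglia. The alternatives were other scalings, filters and tests (DESeq2 1.42.0 among them), a replicate block, and leaving out each library in turn. Exon inclusion was not analysed here.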

Additional observations from a re-analysis of the deposited data

How the results depend on the processing

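The number of cadherins and protocadherins called stayed 0 under all 15 alternatives, with a smallest adjusted p of 0.895 among them. Over all genes, the number called was 1 in the fit reported, 5 by the edgeR exact test, 5 by the likelihood-ratio test, 19 by DESeq2, and 0 to 1 when single libraries were left out (0 without siNC replicate 1, where Qk had a log2 fold change of -3.09 and an adjusted p of 0.1249). Members at an unadjusted p under 0.05 numbered 2 with no filter on low counts (Pcdh17, Pcdha10), 2 by the likelihood-ratio test (Pcdh17, Pcdhb1), and 0 to 2 when single libraries were left out. The median log2 fold change of the tested members ranged from -0.057 to 0.23 on leaving out single libraries, and it was negative without siQk replicate 1 (-0.057) or siQk replicate 3 (-0.0022). The cause was not tested.

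Among 285 refits of 19 named members, 14 changed sign, in 8 members, 13 of them on leaving out a library. Their log2 fold changes then ranged from -0.40 to 0.017 for Pcdha2, -0.44 to 0.31 for Pcdhac2, -0.25 to 0.31 for Pcdhb17, -0.46 to 0.075 for Pcdhgb8, -0.43 to 0.076 for Pcdhgb2, -0.40 to 0.60 for Pcdh12, -0.24 to 0.61 for Cdh22 and -0.91 to 0.032 for Cdh6. For the 11 that kept their sign on leaving out a library, the ranges were 0.18 to 0.44 (Cdh2), 0.11 to 0.41 (Cdh15), 0.36 to 0.92 (Cdh17), -0.83 to -0.29 (Cdh10), -0.35 to -0.14 (Pcdh1), 0.56 to 1.51 (Pcdh17), 0.32 to 0.57 (Pcdha1), 0.54 to 1.09 (Pcdhb1), 0.33 to 0.78 (Pcdhb6), 0.28 to 0.47 (Pcdhb21) and -0.44 to -0.022 (Pcdhb20).

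The labels number the replicates 1 to 3 in both groups, and deviations of same-numbered libraries from their group means correlated at 0.213, 0.018 and -0.170, which does not tie libraries of the same number to each other. A fit with the replicate block called 1 gene and 0 members. It put 23 of the 42 tested members above 0 and 19 below, and 13 of the 18 tested beta rows above 0. Pcdhb17 changed sign, with a log2 fold change of -0.074. That of Cdh22 became 0.021, of Pcdh12 0.12 and of Pcdhac2 -0.049, while that of Cdh6 became -0.36 and of Pcdhgb8 -0.34.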
